A study of Homo sapiens with 12 samples.

Results

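Knockdowns of PRKCI and of SOX2 were compared with each other in spheroids of H1299, an established line from a human lung carcinoma of the non-small cell type. For each gene the response to a knockdown was the change from the non-targeting control run beside it, and the quantity tested was the PRKCI_KD response minus the SOX2_KD response, (PRKCI_KD minus NT1) minus (SOX2_KD minus NT2). The labels place 3 RNA-seq libraries in each of the groups NT1, PRKCI_KD, NT2 and SOX2_KD, and all 12 entered the comparison. Lentiviruses carrying short hairpin RNAs made the knockdowns. The number of hairpins per target is not in the labels, nor is it said whether replicates were separate cultures, so the p-values cover only the spread among these libraries and that spread may be technical. NT1 and PRKCI_KD were run on lane 8 of a flow cell and NT2 and SOX2_KD on lane 7 of another, so the flow cell and the pair of groups cannot be told apart. Of 64253 entries in the deposited table, the comparison took the 13565 genes with a mean of at least 1 RPKM (reads scaled by gene length and by the reads of the library) in NT1 and also in NT2 and a name that occurs once. Another 2094 genes reached that level only in NT1 and 1259 only in NT2, and 603 entries at that level had repeated names. Just inside the limit lay UPF3AP2, with a lower control mean of 1.0007 RPKM and a log2 difference of responses of -0.095. Just outside lay ZDHHC14, with 0.9993 RPKM and -0.268.

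PRKCI encodes protein kinase C iota, an atypical protein kinase C that works with PAR6, PAR3 and the GTPase CDC42 in cell polarity and is an oncogene of lung cancer. SOX2 is a transcription factor of stem cells and of squamous lung tumours, and its gene lies near PRKCI on the long arm of chromosome 3, where both are often gained together in lung cancer. A contrast of responses asks where knockdown of the kinase and knockdown of the transcription factor came with different changes of the same gene. Opposite responses and a response to 1 knockdown alone both give a difference, and for the genes described at length the values in all groups are given.

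Several of the gene groups that differed have known promoter elements, and the window of 250 bases before the start site (RefSeq, GRCh38.p14) is shown for 5 members described further on, each printed 5′ to 3′ on the strand of the gene, with a match to the element of its group in capitals. They show where such letters lie in these genes and are no measure of binding. EGR1 (chr5:138465229-138465478, plus strand) holds CArG boxes, the letters known from serum response elements, starting at -105 and -83 from the start site. CTGF (chr6:131951373-131951622, minus strand; named CCN2 in RefSeq) holds GGAATG, read by TEAD factors, at -169, -104 and -95. IFIT3 (chr10:89327747-89327996, plus strand) holds GAAANNGAAA, the core of the interferon-stimulated response element, at -156 and -122, both on the opposite strand. P4HA1 (chr10:73096867-73097116, minus strand) holds ACGTG, the core of the hypoxia response element, at -86 on the opposite strand. HSPA5 (chr9:125241344-125241593, minus strand) holds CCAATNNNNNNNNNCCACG, the endoplasmic reticulum stress response element, at -66.
EGR1: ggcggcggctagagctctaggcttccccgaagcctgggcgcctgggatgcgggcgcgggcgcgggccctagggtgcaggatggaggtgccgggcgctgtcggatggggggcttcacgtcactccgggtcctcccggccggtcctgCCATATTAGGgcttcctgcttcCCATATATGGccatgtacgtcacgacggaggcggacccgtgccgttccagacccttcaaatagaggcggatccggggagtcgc
CTGF: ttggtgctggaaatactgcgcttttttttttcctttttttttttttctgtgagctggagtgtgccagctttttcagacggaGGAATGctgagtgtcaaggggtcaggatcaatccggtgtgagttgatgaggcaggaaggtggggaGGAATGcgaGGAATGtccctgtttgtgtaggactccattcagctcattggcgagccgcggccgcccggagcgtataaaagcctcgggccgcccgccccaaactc
IFIT3: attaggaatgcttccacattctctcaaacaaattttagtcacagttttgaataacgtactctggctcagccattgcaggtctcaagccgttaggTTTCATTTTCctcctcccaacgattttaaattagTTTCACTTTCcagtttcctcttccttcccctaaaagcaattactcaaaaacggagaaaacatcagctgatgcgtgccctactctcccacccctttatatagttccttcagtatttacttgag
P4HA1: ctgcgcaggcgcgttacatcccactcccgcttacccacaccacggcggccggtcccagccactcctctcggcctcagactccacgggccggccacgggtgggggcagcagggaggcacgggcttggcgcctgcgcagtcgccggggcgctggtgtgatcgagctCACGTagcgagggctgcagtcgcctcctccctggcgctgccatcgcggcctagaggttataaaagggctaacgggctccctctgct
HSPA5: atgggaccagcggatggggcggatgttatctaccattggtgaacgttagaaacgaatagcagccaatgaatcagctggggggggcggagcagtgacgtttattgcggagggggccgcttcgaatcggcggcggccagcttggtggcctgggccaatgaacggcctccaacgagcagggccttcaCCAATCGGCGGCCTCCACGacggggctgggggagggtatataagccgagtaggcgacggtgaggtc

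Both strands were searched. Of 27305 RefSeq promoters, 1.14% held a CArG box, 11.9% GGAATG, 3.07% GAAANNGAAA, 18.7% ACGTG and 0.0806% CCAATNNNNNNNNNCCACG. The lists hold only genes tested, and among the 8603 promoters of genes tested the shares were 0.883%, 9.07%, 2.08%, 24.3% and 0.163%, in the same order. In the interferon list described below, 14 of the 21 promoters found (66.7%) held GAAANNGAAA. In the hypoxia list 17 of 23 (73.9%) held ACGTG, and in the list of endoplasmic reticulum folding genes 6 of 25 (24%) held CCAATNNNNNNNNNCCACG. These are descriptions of the lists, which gather known targets of those elements. A CArG box was held by 2 of the 15 immediate early promoters found and GGAATG by 2 of the 10 of the YAP list, EGR1 and CTGF among them. For these lists fewer than 80% of the members tested had a promoter in the table, so that the check on them is void.

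The responses differed for 3622 of 13565 genes, 26.7% of those tested, in limma's moderated test with Benjamini-Hochberg adjustment over all of them at 0.05. The difference was higher, toward more RNA in PRKCI_KD, for 1574 (11.6%) and lower for 2048 (15.1%). At least 2-fold differences were called for 236 genes (1.74%), 176 of them higher (1.3%) and 60 lower (0.442%). The response to PRKCI_KD was the wider: 6736 genes (49.7%) were called against NT1, 2539 higher (18.7%) and 4197 lower (30.9%), while 1204 (8.88%) were called in SOX2_KD against NT2, 453 higher (3.34%) and 751 lower (5.54%). The SOX2_KD count depended on single libraries, from 435 without SOX2_KD replicate 3 to 1821 without NT1 replicate 3, and was 3250 with a replicate block, against 8478 in PRKCI_KD. Across genes the responses had an SD of 0.388 (log2) for PRKCI_KD and 0.183 for SOX2_KD. Median-of-ratios scaling gave 3181 higher and 3333 lower calls in PRKCI_KD, and in SOX2_KD it turned the balance to 669 higher and 456 lower, as did quantile normalization with 593 and 432. In the difference the same scaling gave 1755 higher and 1872 lower.

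Most of the called differences came with a called PRKCI_KD response and no called SOX2_KD response: 2923 of 3622 (80.7%), 1239 higher and 1684 lower. For 237 (6.54%) both responses were called in the same direction, and in 228 of these the PRKCI_KD response was the larger. For 146 (4.03% of the differences and 1.08% of all genes tested) the responses were called in opposite directions, 91 higher in PRKCI_KD and lower in SOX2_KD and 55 the reverse. With a replicate block, 3899 of 5737 differences had a called PRKCI_KD response alone and 443 were opposite. A SOX2_KD response alone was called for 170 (4.69%), and no response of its own for another 146. Among the 880 genes called in both knockdowns, 734 moved in the same direction, 253 up and 481 down. The 2 sets of responses share no library, and across the 13565 genes their Pearson correlation was 0.268 and their Spearman correlation 0.36, given as descriptions since genes are not independent.

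**Figure D1:**
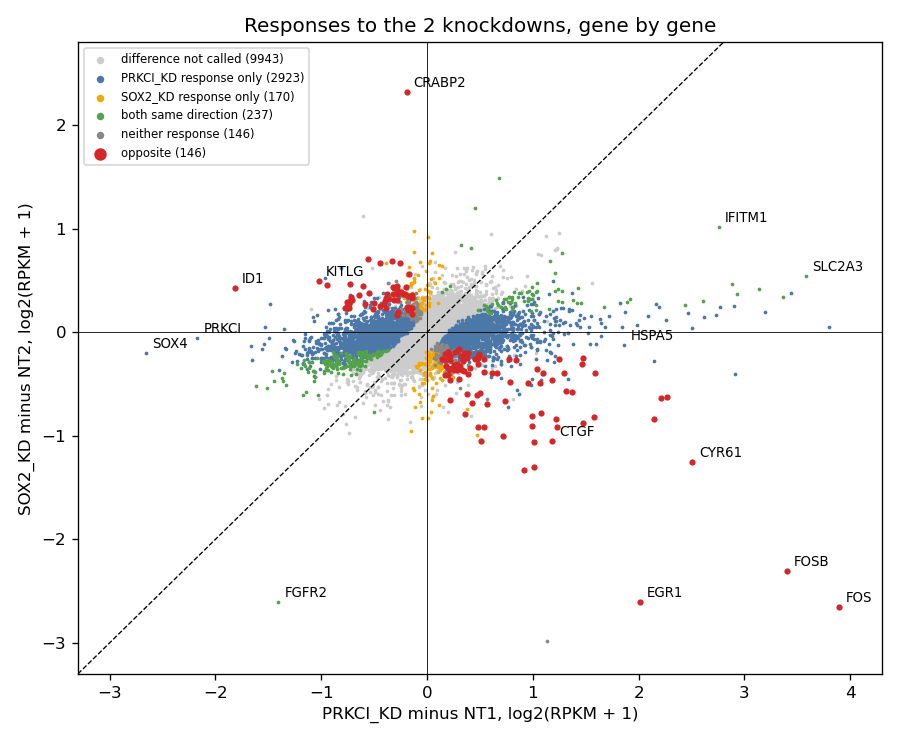
Response to PRKCI_KD (x axis) against response to SOX2_KD (y axis), both on the log2(RPKM + 1) scale, with 1 point per gene (13565 genes) coloured by the class of its difference; the dashed line marks equal responses. The cloud is wider along the PRKCI_KD axis, and FOS, FOSB, EGR1 and CYR61 lie farthest into the corner where PRKCI_KD is up and SOX2_KD is down.

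The controls themselves differed widely: 10474 genes (77.2%) were called between NT2 and NT1, 2577 of them at least 2-fold (19% of all tested). Read totals recovered from the RPKM values lay between 77.1 M and 124.3 M reads per library. The labelled cell type was checked with marker lists. Of 11 fibroblast markers only ACTA2 and of 9 immune cell markers only CD68 reached the level for testing, none of 7 endothelial markers did, and neither ACTA2 nor CD68 was called in the difference. CD68 was called higher in SOX2_KD, at 0.32 (adjusted p = 0.0342), and lower in NT2 than in NT1, at -0.62.

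PRKCI, at chr3:170222365-170305981 (GRCh38, GENCODE 29, plus strand), fell in its own knockdown. Its level was 13.8, 14.3 and 16.4 RPKM in NT1 and 2.43, 2.58 and 2.49 in PRKCI_KD, against 15.1, 16.9 and 18.2 in NT2 and 14.4, 16.8 and 17 in SOX2_KD. The first pair of groups was separate and the second overlapped. The responses were -2.17 and -0.054 (log2), and their difference was -2.12 (SE 0.12, adjusted p = 4.71e-07). SOX2, at chr3:181711924-181714436, was 3.15, 2.98 and 2.91 RPKM in NT1 and 1.78, 2.27 and 2.01 in PRKCI_KD, and 1.41, 1.49 and 1.55 in NT2 and 0.523, 0.582 and 0.588 in SOX2_KD, separate in both pairs. It was called lower in both knockdowns, with responses of -0.41 and -0.67, and the difference of 0.25 (SE 0.089) did not pass the test (adjusted p = 0.0565). It passed with a pseudocount of 0.1 (adjusted p = 0.00357) and with both other scalings. At the gene length that fitted SOX2 best, its deposited RPKM values gave whole reads in 10 of 12 libraries and not in SOX2_KD replicates 1 and 3. For 14 of the genes tested no gene length gave whole reads in all 12 libraries. These are HHAT, WNT9A, ADAM17, ADCY3, FZD7, SOX2, LEF1, SMO, FGFR2, WNT5B, GNB3, GLI1, RAC3 and NOTCH3.

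The largest opposite responses were in immediate early genes, the transcription factors and regulators that cells switch on within minutes of a growth signal or stress. Of 19 listed genes tested, 15 were called higher in the difference and 2 lower, against 11.6% and 15.1% of all genes, with a median difference of 1.03 against -0.031 over all genes. In SOX2_KD 12 fell and none rose, against 5.54% and 3.34% of all genes. In PRKCI_KD 12 rose and 2 fell, against 18.7% and 30.9% of all genes. Opposite responses were called for 10, against 1.08% of all genes: FOS, FOSB, JUNB, EGR1, IER2, NR4A2, DUSP1, KLF2, KLF10 and ZFP36. NR4A2 was opposite in 13 of the 20 settings that tested the same genes, the main fit among them, and KLF2 in 16. In bulk RNA, a change in the share of cells that express a gene and a change in RNA per cell cannot be told apart.

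FOS, the partner of JUN in the transcription factor AP-1 (chr14:75278774-75282230), was 1.18, 1.26 and 4.39 RPKM in NT1 and 45.2, 43.8 and 41.4 in PRKCI_KD. In the other pair it was 40.9, 39.2 and 40.2 RPKM in NT2 and 5.65, 5.43 and 5.57 in SOX2_KD. The groups of each pair were separate, and NT1 replicate 3 stood above the other NT1 libraries. The responses were 3.90 and -2.65, and the difference was 6.55 (SE 0.36, adjusted p = 3.87e-07), with 6.32 to 6.97 when a library was left out. The NT2 level was near that of PRKCI_KD and the SOX2_KD level nearer to NT1, and NT2 exceeded NT1 by 3.78 (adjusted p = 6.35e-08).

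Its relative FOSB was 0.763, 0.81 and 1.75 RPKM in NT1, 22.2, 19.9 and 20.3 in PRKCI_KD, 7.5, 7.35 and 6.59 in NT2 and 0.621, 0.636 and 0.694 in SOX2_KD. The difference was 5.71 (SE 0.19, adjusted p = 6.32e-09), and SOX2_KD lay below NT1 as well as NT2. EGR1, a zinc finger factor induced by ERK (chr5:138465490-138469315), was 11.9, 9.49 and 14.2 RPKM in NT1, 54.5, 48.1 and 48.2 in PRKCI_KD, 100, 86.8 and 87.6 in NT2 and 15.1, 13.8 and 13.7 in SOX2_KD. Its responses of 2.01 and -2.60 gave a difference of 4.61 (SE 0.16, adjusted p = 7.5e-09). For EGR1 the NT2 libraries were the highest of all, and those of NT1 and SOX2_KD overlapped.

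DUSP1, a phosphatase that switches off MAP kinases, was 14.6, 14.5 and 15.9 RPKM in NT1, 37.8, 36.4 and 35.5 in PRKCI_KD, 20.6, 19.6 and 20.1 in NT2 and 10.7, 9.77 and 9.99 in SOX2_KD. NT2 exceeded NT1 by 0.40, PRKCI_KD lay above both controls and SOX2_KD below both, and the difference was 2.15 (SE 0.075, adjusted p = 7.5e-09). JUNB, another partner of FOS, differed by 2.35 (SE 0.18, adjusted p = 6.07e-06), from means of 31.3 ± 4.31 and 88.8 ± 8.48 RPKM in NT1 and PRKCI_KD (SD, n = 3) and 165 ± 22.3 and 89.5 ± 13.1 in NT2 and SOX2_KD. ZFP36, which destabilises messenger RNAs with AU-rich ends, differed by 1.85, and IER2 by 1.45. JUN was called in SOX2_KD alone: 26.7, 23.7 and 27 RPKM in NT1, 28.5, 24.9 and 26.3 in PRKCI_KD, 29.4, 24.9 and 24.7 in NT2 and 17.1, 14.5 and 13.6 in SOX2_KD. The first 3 groups overlapped and SOX2_KD was below them, with a difference of 0.81 (SE 0.13, adjusted p = 0.00116).

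**Figure D2:**
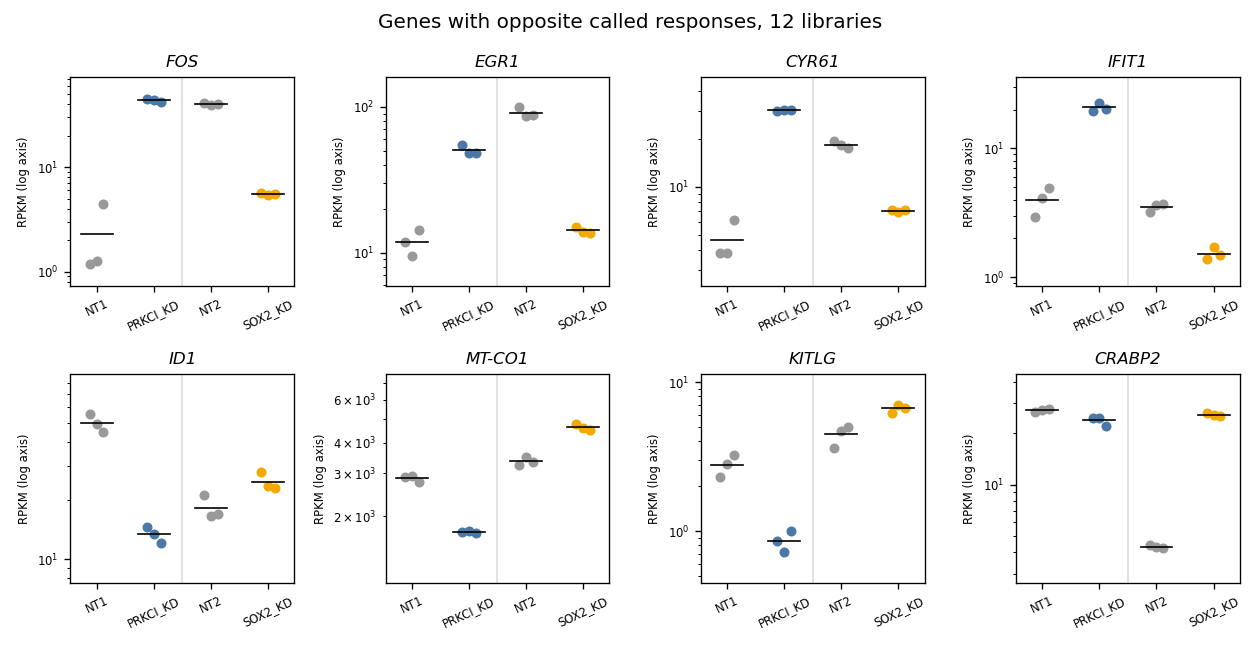
RPKM on a log axis of 8 genes with opposite called responses in all 12 libraries; points are libraries, black lines are group means, and the vertical line parts the 2 flow cells. FOS, EGR1, CYR61 and IFIT1 are up in PRKCI_KD and down in SOX2_KD, and ID1, MT-CO1, KITLG and CRABP2 the reverse; the controls NT1 and NT2 are far apart for FOS, EGR1, CYR61, ID1 and CRABP2.

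Of 16 tested targets of YAP and TEAD, the effectors of the Hippo pathway, 2 had opposite responses, CYR61 and CTGF. CYR61, a secreted matrix protein (chr1:85580761-85583962), was 3.83, 3.85 and 6.19 RPKM in NT1, 30.1, 30.6 and 30.6 in PRKCI_KD, 19.3, 18.3 and 17.5 in NT2 and 7.14, 6.99 and 7.17 in SOX2_KD, a difference of 3.76 (SE 0.17, adjusted p = 7.21e-08). Its relative CTGF was 2.02, 1.8 and 2.14 RPKM in NT1, 5.66, 5.81 and 5.85 in PRKCI_KD, 25.6, 28.4 and 29 in NT2 and 12.9, 12.3 and 13.1 in SOX2_KD, a difference of 2.24 (SE 0.085, adjusted p = 1.41e-08). Both pairs were separate for both genes, and for CTGF both groups of the second flow cell lay above both groups of the first. With a replicate block 4 were opposite. Over the list, 6 were called higher and 4 lower, against 11.6% and 15.1% of all genes, and the median difference was 0.019. LATS2 (1.08) and AMOTL2 (1.32), which encode inhibitors of YAP and are also its targets, were among those called. NT1 stood apart for both. In NT1, PRKCI_KD, NT2 and SOX2_KD the means were 3.2, 8.78, 8.47 and 9.46 RPKM for LATS2 and 5.48, 14.98, 18.8 and 18.6 for AMOTL2. TEAD1 (-0.27) and TEAD4 (-0.036), the DNA-binding partners, were not called.

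Interferon-stimulated genes, which act against viruses, were higher in the difference in 23 of 26 members tested and lower in none, with a median of 1.13. The shares over all genes in the difference were 11.6% higher and 15.1% lower. All 26 were called higher in PRKCI_KD, against 18.7% of all genes. In SOX2_KD 3 rose and 6 fell, against 3.34% and 5.54% of all genes. The 6 that fell were opposite: IFIT1, IFIT2, IFIT3, ISG15, OASL and HERC5. IFIT1, which binds viral RNA ends, was 2.95, 4.11 and 4.93 RPKM in NT1, 19.6, 22.3 and 20.4 in PRKCI_KD, 3.23, 3.63 and 3.67 in NT2 and 1.38, 1.71 and 1.49 in SOX2_KD. The controls overlapped, PRKCI_KD lay above both and SOX2_KD below both, and the difference was 2.98 (SE 0.17, adjusted p = 4.86e-07). IFIT3, whose promoter is shown above, had responses of 1.58 and -0.82 and a difference of 2.40 (SE 0.12, adjusted p = 1.2e-07). IFIT1, IFIT2, IFIT3 and OASL were opposite in all 20 settings that tested the same genes, ISG15 in 19 and HERC5 in 11.

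Other members were called in PRKCI_KD and not called lower in SOX2_KD. IFI6, a small mitochondrial protein, was 58, 63.3 and 54.9 RPKM in NT1 and 285, 263 and 244 in PRKCI_KD, against 9.32, 8.28 and 8.18 in NT2 and 7.43, 6.17 and 7.18 in SOX2_KD, a difference of 2.42 (SE 0.12, adjusted p = 1.2e-07). Its SOX2_KD libraries lay below those of NT2, and that response, -0.28, missed the threshold (adjusted p = 0.0622). IFITM1, a membrane protein that blocks virus entry, rose in both, by 2.75 and 1.02, from 4.84 ± 0.214 to 38.5 ± 2.15 RPKM and from 32.5 ± 0.95 to 66.9 ± 4.55. It shares exons with IFITM2, and its difference was 1.74 (SE 0.088, adjusted p = 1.59e-07). The transcription factor IRF1 (0.15), UBE2L6 (-0.031) and LGALS3BP (-0.040) were the members not called. In the controls 17 of the 26 were lower in NT2 than in NT1 and 7 higher. Between the controls 77.2% of all genes were called in either direction, and the share for each direction is not given here.

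Opposite responses in the other direction, lower in PRKCI_KD and higher in SOX2_KD, included ID1, SPRY1, KITLG, CRABP2, MT2A and most mitochondrially encoded messenger RNAs. ID1, an inhibitor of differentiation factors and a target of BMP signalling (chr20:31605283-31606515), was 55.3, 49.4 and 44.6 RPKM in NT1, 14.6, 13.4 and 12.1 in PRKCI_KD, 21.2, 16.6 and 17.1 in NT2 and 27.9, 23.6 and 23.1 in SOX2_KD. The responses were -1.82 and 0.43 (adjusted p = 0.0358 for the latter), and the difference was -2.25 (SE 0.16, adjusted p = 2.51e-06). ID1 was opposite in 13 of the 20 settings that tested the same genes. ID3 fell with it in PRKCI_KD but was -0.11 in SOX2_KD, not called, with a difference of -1.43 (SE 0.16, adjusted p = 9e-05). SMAD7, which inhibits the receptors of the same family, was opposite the other way, at 0.54 and -0.39.

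SPRY1, a feedback inhibitor of receptor kinases, was 9.4, 8.49 and 9.91 RPKM in NT1, 4.24, 4.11 and 4.58 in PRKCI_KD, 2.88, 2.72 and 2.88 in NT2 and 4.17, 4.26 and 4.32 in SOX2_KD, separate in both pairs, with a difference of -1.41 (SE 0.083, adjusted p = 6.26e-07). KITLG, the ligand of the receptor KIT, fell from 2.79 ± 0.473 to 0.859 ± 0.136 RPKM and rose from 4.45 ± 0.727 to 6.65 ± 0.452 (SD, n = 3), a difference of -1.52 (SE 0.16, adjusted p = 5.27e-05). It was opposite in 17 of the 20 settings. Over the ERK list of 15 genes tested, 5 were called higher and 5 lower, against 11.6% and 15.1% of all genes. DUSP6, a phosphatase of ERK, was called in SOX2_KD alone (-0.051 and -0.83). The lowest difference of all named genes was that of CRABP2, which carries retinoic acid to its receptors (chr1:156699606-156705816). It was 26.5, 27.5 and 27.7 RPKM in NT1, 24.6, 24.7 and 22.1 in PRKCI_KD, 4.4, 4.29 and 4.26 in NT2 and 26.2, 25.5 and 25.1 in SOX2_KD. NT2 alone stood apart and the other 3 groups lay between 22.1 and 27.7 RPKM. The difference of -2.51 (SE 0.073, adjusted p = 2.06e-09) came almost wholly from SOX2_KD against NT2 (2.32). MT2A, a metal-binding metallothionein, differed by -1.02 (SE 0.11, adjusted p = 5.67e-05), from means of 162, 129, 51.5 and 83.5 RPKM in NT1, PRKCI_KD, NT2 and SOX2_KD.

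All 13 messenger RNAs of the mitochondrial genome, which encode subunits of the respiratory chain, were called lower in the difference, with a median of -1.02. In PRKCI_KD 11 fell and in SOX2_KD 10 rose, against 30.9% and 3.34% of all genes. Opposite responses were called for 9, against 1.08% of all genes. MT-CO1, a subunit of cytochrome c oxidase, was 2876, 2926 and 2762 RPKM in NT1, 1714, 1734 and 1709 in PRKCI_KD, 3233, 3473 and 3337 in NT2 and 4762, 4589 and 4487 in SOX2_KD, separate in both pairs, with a difference of -1.19 (SE 0.076, adjusted p = 1.22e-06). MT-ND6, encoded on the other strand, differed by -0.59 (SE 0.084, adjusted p = 0.000475), with means of 1978, 1630, 1357 and 1680 RPKM in NT1, PRKCI_KD, NT2 and SOX2_KD. With quantile normalization 11 of the 13 were still called lower, at a median of -0.563, but none was called in SOX2_KD and none was opposite. Of the 56 respiratory chain subunits encoded in the nucleus, 1 was called higher and 5 lower, at a median of -0.075. Over all genes 11.6% were called higher and 15.1% lower.

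Of the 22 mitochondrial transfer RNAs, examined after their values had been seen, 9 were called higher, 1 lower and 12 were not called. Their median was 0.533, and the shares over all genes were 11.6% higher and 15.1% lower. MT-TF, the transfer RNA of phenylalanine, was 164, 198 and 331 RPKM in NT1, 358, 436 and 568 in PRKCI_KD, 658, 1107 and 1078 in NT2 and 334, 413 and 380.2 in SOX2_KD, with a difference of 2.31 (SE 0.38, adjusted p = 0.00106). MT-TV, the transfer RNA of valine, differed by 2.07 (SE 0.20, adjusted p = 3.33e-05). These genes are very short, and their RPKM levels are not set against those of longer genes.

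Genes of the hypoxia response were higher in the difference throughout their list. All 26 members tested were called higher, at a median difference of 1.66. The shares over all genes in the difference were 11.6% higher and 15.1% lower. In PRKCI_KD all 26 rose, at a median of 1.66, against 18.7% of all genes. In SOX2_KD 10 rose and 1, BHLHE40, fell, at a median of 0.18, against 3.34% and 5.54% of all genes. The controls differed here too: 22 members were higher in NT2 than in NT1 and 3 lower, at a median of 1.20. Of all genes, 77.2% were called between NT2 and NT1 in either direction. The share for each direction is not given here, so these counts do not set the list apart. What part the control levels have in the differences was not tested.

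VEGFA, the vascular growth factor, was 1.78, 1.96 and 1.8 RPKM in NT1 and 17, 15.8 and 16.6 in PRKCI_KD, and 7.55, 7.22 and 7.3 in NT2 and 8.49, 8.11 and 8.22 in SOX2_KD. The PRKCI_KD libraries were the highest and the difference was 2.47 (SE 0.068, adjusted p = 1.4e-09). SLC2A3, a glucose transporter (chr12:7919230-7936275), was 9.52, 9.37 and 9.92 RPKM in NT1, 122, 131 and 123 in PRKCI_KD, 136, 147 and 144 in NT2 and 206, 215 and 205 in SOX2_KD, with a difference of 3.03 (SE 0.072, adjusted p = 9.78e-10). It rose in both pairs, but here NT1 was the group that stood apart and PRKCI_KD stayed below NT2. P4HA1, which hydroxylates collagen, was 14.2, 16.1 and 17.3 RPKM in NT1, 159, 179.8 and 177 in PRKCI_KD, 36.3, 41 and 41.2 in NT2 and 47.3, 51.4 and 51.6 in SOX2_KD, a difference of 3.02 (SE 0.11, adjusted p = 1.28e-08).

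HK2, the hexokinase of many tumours, was 5.5, 5.5 and 5.88 RPKM in NT1, 50.7, 47.4 and 50.1 in PRKCI_KD, 3.65, 3.71 and 3.59 in NT2 and 5.06, 5 and 5 in SOX2_KD. PRKCI_KD stood far above the other 3 groups, and the difference was 2.56 (SE 0.065, adjusted p = 9.78e-10). PFKFB4, which makes an activator of glycolysis, differed by 3.00 (SE 0.096, adjusted p = 4.14e-09), with means of 2.1, 27.4, 16.8 and 19.5 RPKM in NT1, PRKCI_KD, NT2 and SOX2_KD. ERO1L, which oxidises proteins as they fold, differed by 2.72, with means of 9.93, 95.3, 40.7 and 54.7 RPKM. Of 18 glycolysis genes tested, 13 were called higher and 1 lower, against 11.6% and 15.1% of all genes, at a median of 1.002. HK1 (0.18), PFKL (0.30), PFKM (-0.076) and PKM (0.25) were not called. The lists share members, HK2, ENO2, SLC2A3 and PGK1 among them.

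Genes of protein folding in the endoplasmic reticulum were called higher in 17 of 27 members tested and lower in 1. Their median was 0.47, and the shares over all genes were 11.6% higher and 15.1% lower. HSPA5, the chaperone BiP (chr9:125234853-125241330), was 118, 116 and 122 RPKM in NT1, 426, 444 and 433 in PRKCI_KD, 111, 115 and 115 in NT2 and 102, 105 and 106 in SOX2_KD. NT1 lay slightly above NT2, PRKCI_KD was far above both, and the difference was 1.99 (SE 0.064, adjusted p = 4.14e-09). HERPUD1 (1.71), which helps to degrade misfolded proteins, XBP1 (0.79), a transcription factor of the unfolded protein response, and the chaperone HSP90B1 (1.22) were also called. For XBP1 it was NT1 that stood apart, with means of 12.1, 22, 21.1 and 21.45 RPKM in NT1, PRKCI_KD, NT2 and SOX2_KD. CALR, a chaperone that binds sugars, was called in SOX2_KD alone, at -0.39 against 0.11 in PRKCI_KD. SDF2L1 (0.25), CRELD2 (-0.066) and DNAJB11 (0.14) were among those not called in the difference.

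Genes of the ATF4 stress response and of amino acid supply were called higher in 22 of 26 members tested and lower in 1. Their median was 0.73, and the shares over all genes were 11.6% higher and 15.1% lower. TRIB3, a pseudokinase induced by ATF4, was 4.8, 4.4 and 4.52 RPKM in NT1, 31.9, 30.9 and 29.2 in PRKCI_KD, 13.2, 11.6 and 11.4 in NT2 and 13.4, 12 and 12 in SOX2_KD, with NT2 and SOX2_KD overlapping and a difference of 2.46 (SE 0.096, adjusted p = 1.68e-08). ASNS, which makes asparagine, was opposite: 13.6, 13.4 and 16.5 RPKM in NT1, 39.7, 43.5 and 41.6 in PRKCI_KD, 29.5, 30.9 and 30.8 in NT2 and 23.2, 25.1 and 24.8 in SOX2_KD, a difference of 1.77 (SE 0.10, adjusted p = 5.46e-07). CHAC1, PSAT1 and SLC7A5 were opposite too, and with a replicate block 9 of the list were. Of the 20 settings, ASNS was opposite in 14, CHAC1 in 19, PSAT1 in 20 and SLC7A5 in 11. CHAC1 breaks down glutathione, PSAT1 makes serine and SLC7A5 imports amino acids, and their differences were 1.56, 1.005 and 1.69.

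**Figure D3:**
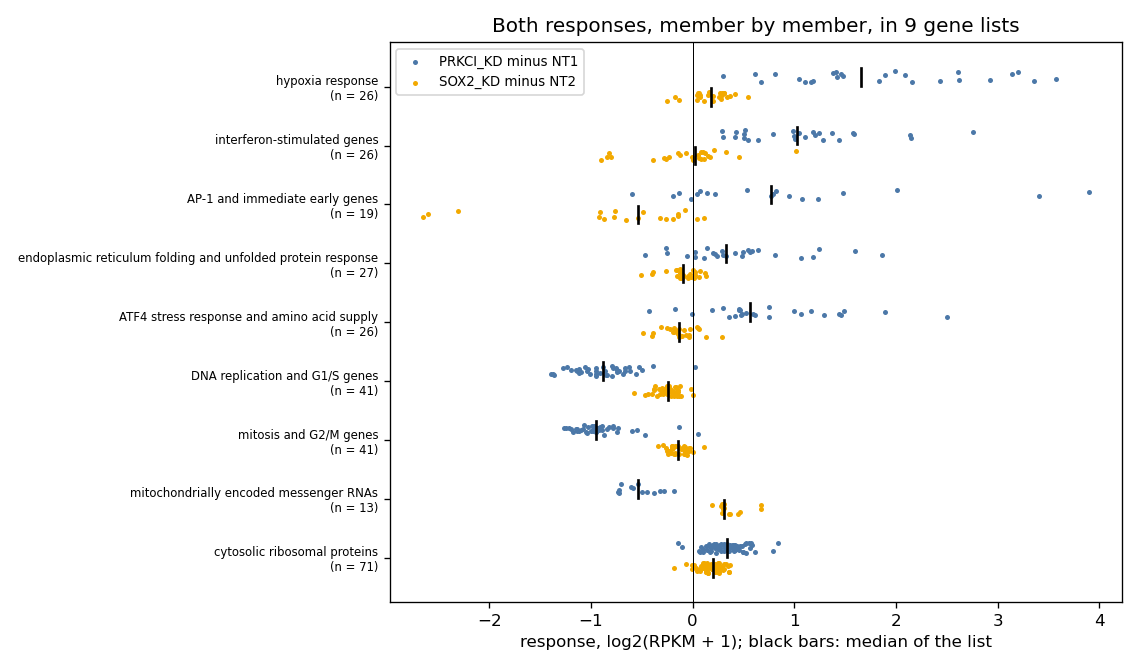
Responses of the members of 9 gene lists, on the log2(RPKM + 1) scale; each point is a gene, blue for PRKCI_KD minus NT1 and yellow for SOX2_KD minus NT2, and black bars are list medians. Hypoxia genes sit to the right in PRKCI_KD and near 0 in SOX2_KD, replication and mitosis genes sit farther to the left in PRKCI_KD, and mitochondrial messenger RNAs lie on opposite sides of 0.

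Genes of cell division were lower in the difference. Of 41 DNA replication genes tested, 36 were called lower and 1 higher, at a median of -0.61. In PRKCI_KD 40 fell, at a median of -0.88, and in SOX2_KD 16 fell, at a median of -0.25. Of 41 mitosis genes tested, 37 were called lower and none higher, at a median of -0.82, with 39 that fell in PRKCI_KD and 2, PLK1 and FOXM1, in SOX2_KD (7 with a replicate block). For both lists, the shares over all genes in the difference were 15.1% lower and 11.6% higher. Of all genes, 30.9% fell in PRKCI_KD and 5.54% in SOX2_KD. The count of replication genes called in SOX2_KD lay between 4 and 28 over the 20 settings that tested the same genes.

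GINS2, a subunit of the replicative helicase, was 8.5, 8.08 and 9.57 RPKM in NT1, 2.69, 2.83 and 2.73 in PRKCI_KD, 7.98, 8.04 and 8.06 in NT2 and 5.54, 5.91 and 5.55 in SOX2_KD. It fell in both pairs, the controls were close, and the difference was -0.93 (SE 0.082, adjusted p = 1.57e-05). FOXM1, a transcription factor of mitotic genes, was 33.1, 33.6 and 34.5 RPKM in NT1, 15, 14.1 and 13.5 in PRKCI_KD, 58.3, 56.8 and 53 in NT2 and 46.2, 42.6 and 43.1 in SOX2_KD, with a difference of -0.85 (SE 0.081, adjusted p = 2.76e-05). KIF2C, a kinesin that corrects microtubule attachments, was 17, 20.6 and 22.3 RPKM in NT1, 9.93, 10.4 and 9.52 in PRKCI_KD, 20.8, 20.5 and 20.1 in NT2 and 20.4, 20.4 and 20.6 in SOX2_KD. The PRKCI_KD libraries alone stood apart, and the difference was -0.93 (SE 0.11, adjusted p = 0.00016). CCNE1, the cyclin of entry into DNA synthesis, was the member called higher, at 0.028 in PRKCI_KD and -0.21 in SOX2_KD.

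**Figure D4:**
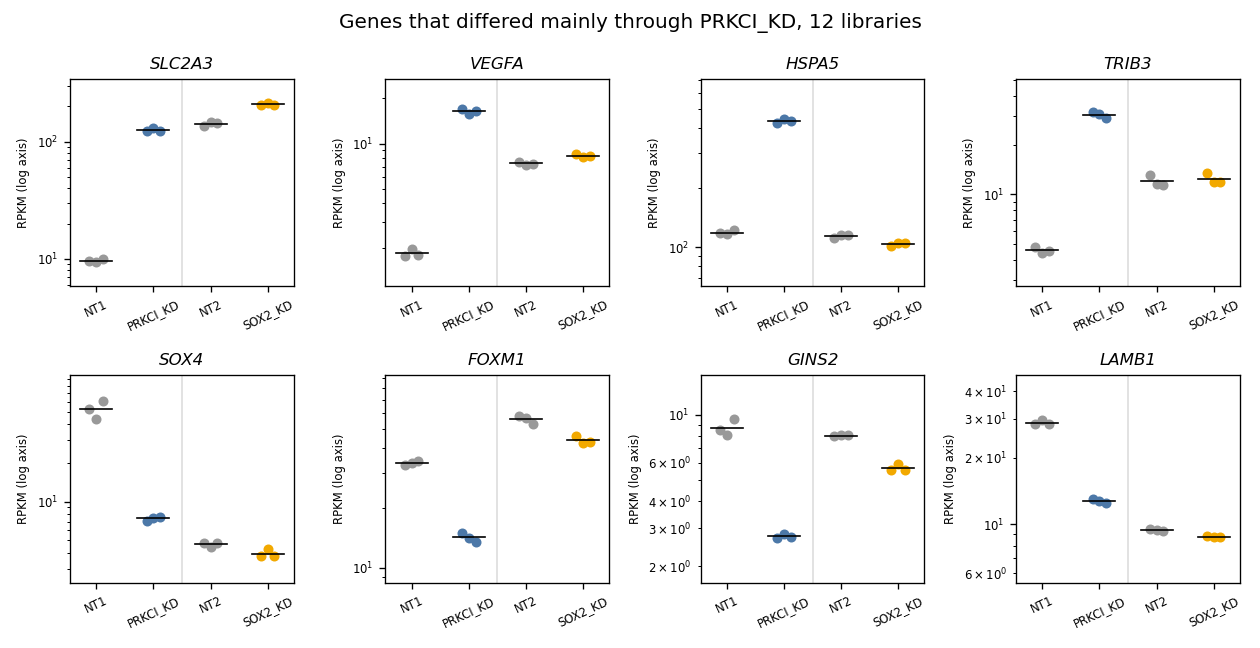
RPKM on a log axis, in all 12 libraries, of 8 genes with a larger change between PRKCI_KD and NT1 than between SOX2_KD and NT2. Points are libraries, black lines are group means, and the vertical line parts the 2 flow cells. SLC2A3, VEGFA, HSPA5 and TRIB3 rise in PRKCI_KD and SOX4, FOXM1, GINS2 and LAMB1 fall, while NT2 and SOX2_KD lie closer together. For SLC2A3, SOX4 and LAMB1 the group that stands apart is NT1, and the part of the NT1 level in the difference was not tested.

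SOX4, a transcription factor of the family of SOX2 (chr6:21592768-21598619), was 52.8, 43.9 and 60.7 RPKM in NT1 and 7.07, 7.47 and 7.64 in PRKCI_KD, and 4.72, 4.42 and 4.79 in NT2 and 3.78, 4.24 and 3.75 in SOX2_KD. The difference was -2.46 (SE 0.14, adjusted p = 3.38e-07), and NT2 and SOX2_KD were both below every library of the other pair. LAMB1, a chain of basement membrane laminin, was 28.3, 29.7 and 28.4 RPKM in NT1, 13, 12.7 and 12.5 in PRKCI_KD, 9.48, 9.39 and 9.27 in NT2 and 8.88, 8.79 and 8.71 in SOX2_KD, with the same order and a difference of -1.03 (SE 0.060, adjusted p = 5.14e-07). CLDN1, a tight junction protein, rose in both, by 1.24 and 0.30, with a difference of 0.94 (SE 0.10, adjusted p = 8.42e-05). Of the matrix list 4 of 12 tested were called higher and 2 lower, and of the stem cell list 1 of 8 higher and 3 lower. Over all genes the shares were 11.6% and 15.1%.

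Of 71 proteins of the cytosolic ribosome tested, 60 rose in PRKCI_KD and 20 in SOX2_KD, at medians of 0.34 and 0.20, and 10 were called higher in the difference and none lower, at a median of 0.12. Over all genes 11.6% were higher and 15.1% lower in the difference, and 18.7% rose in PRKCI_KD and 3.34% in SOX2_KD. Quantile normalization gave 5 higher and 5 lower, and a replicate block 19 higher and 1 lower in the difference and 42 that rose in SOX2_KD. RPL36, a protein of the large subunit, had the smallest p of the list. It was 55.3, 53.3 and 57.3 RPKM in NT1, 92.4, 108 and 99.4 in PRKCI_KD, 104, 100 and 103 in NT2 and 113, 117 and 111 in SOX2_KD, a difference of 0.69 (SE 0.085, adjusted p = 0.000182), and it shares exons with HSD11B1L and LONP1. Of 33 genes of ribosome assembly tested, 4 were called higher and 8 lower, at a median of -0.17.

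Of 14 genes of the polarity complex tested, PRKCI among them, 1 was called higher and 2 lower, near the shares of 11.6% and 15.1% over all genes. CDC42, the GTPase that activates the complex, was 81.8, 80.3 and 92.9 RPKM in NT1, 45.9, 52.8 and 50.4 in PRKCI_KD, 63.7, 65.7 and 64.8 in NT2 and 54.5, 61.8 and 59.7 in SOX2_KD, a difference of -0.62 (SE 0.10, adjusted p = 0.00119). PARD3, the scaffold PAR3, was the member called higher, at 0.34 (SE 0.069). PRKCZ, the other atypical kinase (0.017, SE 0.11), PARD6A (0.25, SE 0.14) and ECT2 (-0.26, SE 0.19), an exchange factor and substrate of the kinase, were not called. Of 27 genes of the chromosome 3q26 region tested, 5 were called higher and 6 lower, with PRKCI among the lower. TERC, the RNA of telomerase, was called in SOX2_KD alone (-0.025 and -0.49).

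The Hedgehog, Notch and Wnt lists had few members at this level, and several of their members are among the genes without whole reads in some libraries. The shares over all genes, for comparison, were 11.6% higher and 15.1% lower. Of 9 Hedgehog genes tested, 1 was called higher and 3 lower. HHAT, which attaches palmitate to Hedgehog ligands, was the one called higher (0.27) and fell in both knockdowns, with responses of -0.50 and -0.78, and SMO (0.063) and GLI1 (-0.20) were not called. At the gene length that fitted it best, HHAT had whole reads in the 6 libraries of PRKCI_KD and SOX2_KD and in none of NT1 and NT2. Both of its responses thus rest on control values that were not whole reads. SMO had whole reads in 8 libraries and GLI1 in 6. The calls on KIF7 (-0.65), DISP1 (-0.39) and SUFU (-0.39) did not rest on values without whole reads. Of 11 Notch genes tested, 2 were called higher and none lower. HES1, a repressor induced by Notch, had opposite responses of 0.54 and -0.26, with a difference of 0.80 (SE 0.098, adjusted p = 0.000171), and was opposite in 10 of the 20 settings. Of 4 Wnt genes tested, 2 were called lower: CCND1 (-0.55), the cyclin D1 gene, and LEF1 (-0.57), a partner of beta-catenin, whose values in the 3 NT2 libraries were not whole reads.

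On the log2(RPKM + 1) scale, genes with a larger response to SOX2_KD in the same direction were few, 9 in all. Among them FGFR2, a fibroblast growth factor receptor, fell in both pairs, from 2.41, 1.79 and 1.8 RPKM in NT1 to 0.126, 0.13 and 0.118 in PRKCI_KD and from 10.9, 11 and 11 in NT2 to 0.974, 0.963 and 0.973 in SOX2_KD. Its difference was 1.19 (SE 0.10, adjusted p = 1.19e-05), and its value in PRKCI_KD replicate 1 was not a whole number of reads. With a pseudocount of 0.1 RPKM in place of 1 the difference was 0.154 and was not called (adjusted p = 0.495). The PRKCI_KD level of FGFR2 lay far below the 1 RPKM added. In RPKM itself its mean fell by the larger factor in PRKCI_KD, from 2 to 0.124, against 10.95 to 0.97 in SOX2_KD. The order of its 2 responses thus depends on the pseudocount. Among genes that fell in both and farther in PRKCI_KD, MARCKSL1 (-1.09), TMSB15A (-0.97), F2RL1 (-0.97) and ZWINT (-0.95) were among those with the largest differences.

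Of the remaining lists, cholesterol and fatty acid synthesis had 13 of 31 genes tested called higher and 3 lower, at a median of 0.22. INSIG1, a brake on that pathway, rose in both, with a difference of 1.43. For these lists too, the shares over all genes were 11.6% higher and 15.1% lower. Of 17 p53 targets tested, 6 were called higher and 4 lower, in a line that lacks p53. Of 15 NRF2 targets tested, 4 were called higher and 1 lower, with HMOX1, the heme oxygenase, at 2.28 (SE 0.11, adjusted p = 1.2e-07). HMOX1 was 5.97, 6.82 and 6.57 RPKM in NT1, 43.8, 40.2 and 36.8 in PRKCI_KD, 657, 579 and 575 in NT2 and 725, 663 and 669 in SOX2_KD, so that PRKCI_KD stayed far below NT2. NF-kB targets had 5 of 10 called higher and 2 lower, and NFKBIA, the inhibitor of the factor, was among those called. NFKBIA was opposite (0.48 and -0.25) in 11 of the 20 settings, the main fit among them. Of 12 heat shock chaperones of the cytosol tested, none was called higher and 2 lower, and of 8 epithelial junction genes 2 were called higher and 1 lower. In all, 5157 genes had an unadjusted p under 0.05 in the difference.

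**Figure D5:**
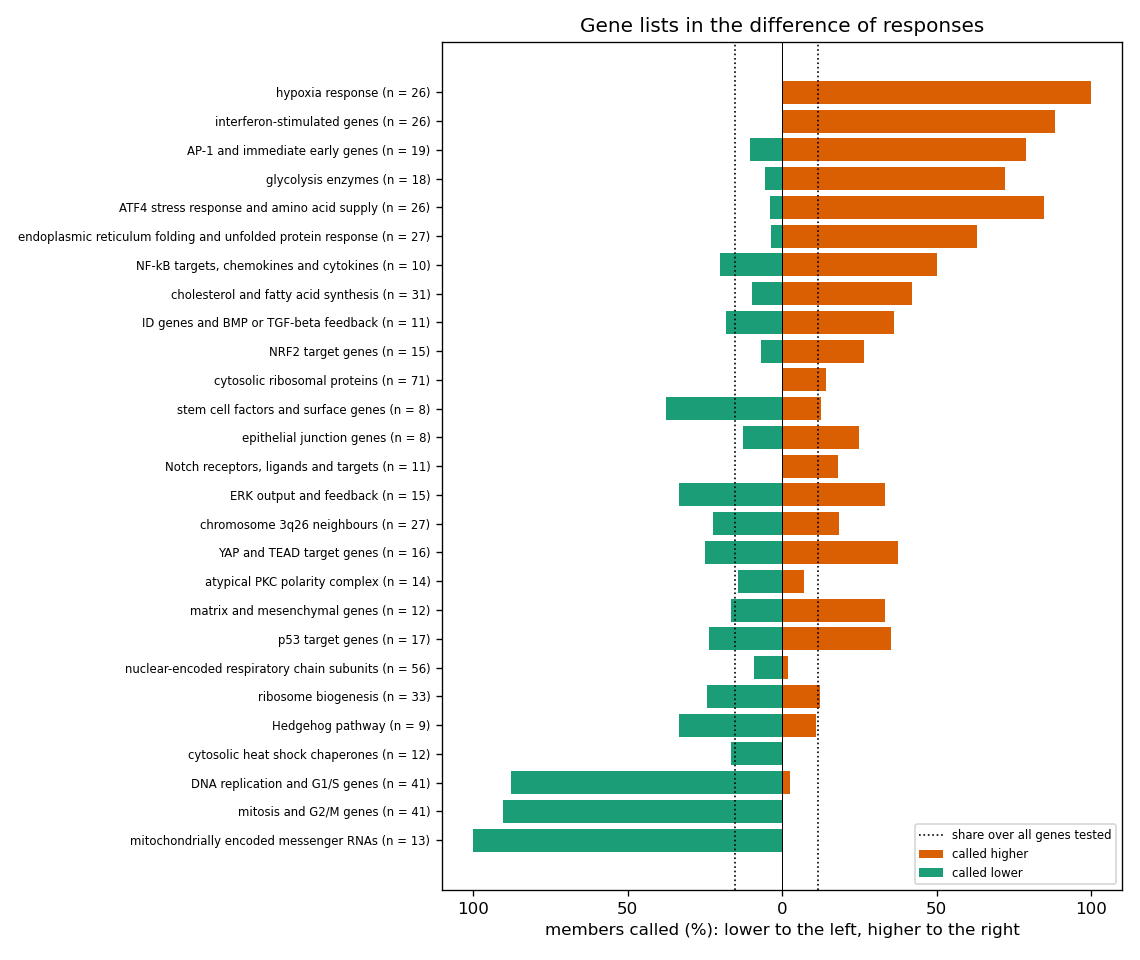
Share of tested members of each gene list called higher (orange, to the right) or lower (green, to the left) in the difference of responses, in percent, for lists with at least 8 members; n is the number tested and dotted lines mark the share over all genes, 11.6% higher and 15.1% lower. Hypoxia and interferon lists reach 26 and 23 of 26 members higher, and mitochondrial messenger RNAs 13 of 13 lower.

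Some of the largest differences belonged to small or uncertain genes. PDIA3P2, a pseudogene of the chaperone PDIA3, was 35.6, 5.36 and 16.4 RPKM in NT1, 33.8, 30.7 and 38 in PRKCI_KD, 25.3, 41.1 and 25.4 in NT2 and 27.2, 0.818 and 0.152 in SOX2_KD. Libraries of the same group differed as much as the groups, neither response was called, and the difference of 4.12 (SE 1.37, adjusted p = 0.0448) lost its call in 13 of the alternative settings. MIR27A, the gene of a microRNA precursor, differed by 3.31 (SE 0.41, adjusted p = 0.000202), and its exon is shared with AC020916.1, and the reads of these genes cannot be told apart. RP1-261G23.7 (3.75) and RP11-344N10.2 (3.06) were among the 10 highest, and AL355388.1 (-1.59), AC026956.1 (-1.54), MIR3186 (-1.49) and AC005071.1 (-1.44) among the 10 lowest. AC005071.1 lost its call in 6 settings.

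Of the 146 genes with opposite responses, 35 were opposite in all 20 settings that tested the same genes. Beside the members of the lists above, these include CAV1, the coat protein of caveolae (0.21 and -0.35), RHOB, a GTPase of endosomes (1.37 and -0.57), BCL6, a transcriptional repressor (-0.26 and 0.67), and MMP9, a secreted protease (0.73 and -0.67), all 4 named after their values had been seen. The count of opposite genes moved with single libraries. It was 79 without NT2 replicate 2, 72 without NT2 replicate 3, and 96, 66 and 61 without SOX2_KD replicates 1, 2 and 3. The SOX2_KD calls moved with it, to 578, 603, 790, 448 and 435, and to 1821 without NT1 replicate 3.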

How the data were processed

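Per the file headers, the deposited values were RPKM, each library a column of a single table. TopHat2 2.1, Bowtie 1.1.2, featureCounts and GRCh38 are named in the submitters' processing notes, and the annotation and strand setting are not given there. Per the labels' protocols, 120 ng of total RNA per library went through a kit that does not mark strand, read over 101 bases from both ends, so reads of overlapping genes cannot be told apart. Of 136 named genes, 49 share exons with another gene of GENCODE 29. Among these 49 are VEGFA, P4HA1, HK2, PFKFB4, SOX4, CTGF, KITLG, ASNS, FOXM1 and GINS2.

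The test was limma-trend (limma 3.58.1 in R 4.3.3). It was fitted to log2(RPKM + 1) with 4 group means, 8 residual degrees of freedom and Benjamini-Hochberg adjustment over 13565 genes. Every adjusted p comes from that fit, except those given with a pseudocount of 0.1. Fold changes on this scale understate those of low genes. Read counts recovered from the RPKM values were whole within 0.001 reads for 13551 genes (99.9%). An exact permutation test of 3 against 3 libraries cannot go below p = 0.1 (two-sided). The procedure was tested on simulated data with independent noise in each library, so that test does not cover libraries that deviate together. Same-numbered libraries deviated together in NT2 and SOX2_KD (correlations of 0.636, 0.335 and 0.342) and not throughout in NT1 and PRKCI_KD (0.624, -0.153 and 0.457), and nothing in the labels says what a number marks. Counts from a fit with a replicate block are given where they move a SOX2_KD result.

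Members and lists were chosen with earlier results of these data known. Genes named were the targets, the 10 highest and 10 lowest differences, 8 opposite genes per direction, 6 same-direction genes per direction, and up to 4 genes per list by p. List members named beyond these, such as IFIT1, JUN and JUNB, were chosen after their values were seen. Lists were described by counts and medians, with no test. Pseudocounts, level filters, scalings, variance models, a replicate block and left-out libraries were tried as alternatives. Some genes that the naming rule or the lists hold are not reported here.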

Additional observations from a re-analysis of the deposited data

How the results depend on the processing

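The difference of responses was called for 2850 to 3982 genes when 1 library was left out, the opposite class for 61 to 211, SOX2_KD against NT2 for 435 to 1821, PRKCI_KD against NT1 for 5825 to 7050 and NT2 against NT1 for 9954 to 10507. A level minimum of 5 RPKM, which tests fewer genes, left 2147 differences, 85 opposite genes, 4005 PRKCI_KD calls, 762 SOX2_KD calls and 5713 calls between the controls. With no filter on low values 19213 were called between the controls. Same-numbered libraries deviated together in NT2 and SOX2_KD and not throughout in NT1 and PRKCI_KD, and not every library correlated best with its own number. A replicate block gave 5737 differences, 3607 of them shared with the fit without it, 443 opposite genes and 3250 SOX2_KD calls. Of 136 named genes, 121 kept their direction and side of the threshold in the difference in every alternative that tested them, and no named gene reversed. The others are AC005071.1, DLG1, DNAJA1, FGFR2, HHAT, HSPE1, JUP, MT1X, MYC, NDUFB10, NOTCH1, NOTCH2, PDIA3P2, SOX2 and TIMP1; the cause was not tested. The level minimum of 5 RPKM tested 91 of the 136, without FOS, FOSB, VEGFA and CTGF, and the fit without the genes that lack whole reads tested 132. The minimum of 1 RPKM in both controls was a chosen one, and genes below it were not analysed here.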
